A study of Mus musculus with 48 samples.

Results

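The change in gene expression of O4+ cells between postnatal day 5 (P5) and postnatal day 10 (P10) was measured in mice that had received IL1B, an inflammatory cytokine. The samples were chosen by their labels alone: all arrays of O4+ cells with IL1B, which are 12 of the 48 samples of the series, 6 at P5 and 6 at P10. The P5 group came from male mice of the Swiss strain that were injected into the peritoneum with 10 ng/g of IL1B from P1 to P4 and a last time at P5, and were collected on that day. The P10 group had the same injections and was collected 5 days after the last of them, without further injections of the cytokine. The study's methods give the strain as OF1 and pool 3 brains per sample, where the labels count 6 mice per group, and the labels and methods differ on the hours between the last injection and the P5 collection. Labels of the P10 samples repeat P5 in 1 field, while P10 stands in the title, stage and source name, and this age was taken. O4+ cells and CD11B+ cells (microglia and other myeloid cells) were taken from dissociated brain one after the other with magnetic beads, and 24 of the samples are the CD11B+ cells. Control O4+ samples with PBS, 6 at P5 and 6 at P10, had the same schedule of injections without the cytokine and are set beside the IL1B groups. Every pup was a male without a stated mutation, and the samples are bulk preparations.

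O4 is a surface lipid antigen that appears on late oligodendrocyte progenitors and stays on immature oligodendrocytes, the cells that will wrap axons with myelin. Over the first postnatal days these cells leave the cell cycle, switch off progenitor genes, and begin to make myelin proteins together with the cholesterol and galactolipids of the myelin membrane. IL1B acts through its receptor and NF-kappaB to induce acute phase proteins and chemokines, and systemic inflammation at this age is a known model of the white matter injury of preterm infants. The comparison asks which of the steps of this maturation took place between P5 and P10 after such an exposure.

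Each sample was read on a 1-colour Agilent mouse array, and the value used is the log2 of the quantile-normalized signal, a level that can be compared between samples for a probe but not between probes. Between 60.4% and 65.4% of probes were well above background on the P5 arrays and between 59.0% and 62.9% on the P10 arrays. Pearson correlations across all probes were 0.9897 to 0.9936 among the P5 arrays, 0.9851 to 0.9929 among the P10 arrays, and 0.9765 to 0.9873 between the ages. No slide and no scan day held arrays of both ages, so that age, slide and the time since the last injection cannot be told apart in any age change below. Treatment was partly tied to slide as well, since among the O4+ arrays slides 3 and 6 held IL1B arrays only. A difference between IL1B and PBS can therefore not be fully told apart from slide. The identity of the cells was checked with 10 genes of the oligodendrocyte lineage, which exceeded background on each of the 12 arrays and of which 0 had more signal in CD11B+ cells of the P5 IL1B group. The 15 microglial markers were also above background on all 12 arrays. Of these, 13 had more signal in CD11B+ cells of the P5 IL1B group, and the median difference over the 15 was 1.40 (log2). Neither comparison measures the purity of the O4+ samples, and the microglial markers are followed below beside the results. Precision is limited by the number of arrays, and p-values measure the spread between these samples.

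Between P5 and P10 after IL1B, 15 of 20 structural myelin genes rose and 22 of 25 acute phase genes fell, while 2 of 24 mitosis genes were called. Of 55681 probes, 3378 were called higher at P10 (6.07%) and 3252 were called lower (5.84%), where a call needed both an adjusted p below 0.05 by limma and group medians at least 1.5 times apart. On 4976 of the 6630 called probes the values of the 6 P5 and the 6 P10 arrays did not overlap. The share over all probes was not counted, and a choice by p and fold favours probes without overlap. With 1 probe per named gene, the one with the most signal, 1544 of 21735 genes were higher (7.10%) and 1808 were lower (8.32%), and the gene lists below are read against these shares. Among the 15784 named genes well above background on all arrays of an age, 1422 (9.01%) were higher and 1656 (10.5%) were lower. With the deposited matrix values, which are scaled by each array's median, 61.2% of the called probes were higher, against 51.0% here, and the median change of all probes moved from 0.03 to 0.20 (log2).

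In the PBS groups, which share no sample with the IL1B groups, 4380 probes were called higher at P10 (7.87%) and 4997 lower (8.97%), and per named gene 8.60% were higher and 12.9% lower. Of the probes called higher, 2194 were common to both treatments, out of 3378 with IL1B and 4380 with PBS. Of those called lower, 1823 were common, out of 3252 with IL1B and 4997 with PBS. Opposite calls were few, 35 probes higher with IL1B and lower with PBS and 13 the other way. A further 2565 probes were called with IL1B and not with PBS, and for 903 of them the difference between the age changes itself passed the test. This test of the difference, an interaction term over 24 arrays at an adjusted p under 0.05 without a fold threshold, called 4361 probes (7.83%) with a more positive change after IL1B and 2961 (5.32%) with a more negative one. Per named gene these shares were 12.4% and 6.99%. The split depended on the scaling: with each array scaled to its 75th percentile, 2888 probes were more positive and 4923 more negative, and the median interaction over all probes moved from 0.01 to -0.11. The spike-in control with the most signal, relative to that percentile, stood at 8.18 to 8.85 (log2) on the P5 and 8.31 to 8.88 on the P10 arrays with IL1B, and at 8.14 to 8.73 and 8.98 to 9.40 with PBS. It was highest in the P10 PBS group, and its part in the split was not tested.

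The 12 largest rises were taken from called probes above background on all 12 arrays whose ages did not overlap. Among them were Mobp, S1pr5, Etnk2, Ermn, Tmem125, Pdlim2, Mog, Mal, Kndc1, Cldn14 and Il12rb1, with ratios of medians from 226 down to 14.4. Mobp encodes a basic protein of compact myelin, and its probe lies at chr9:120077006-120077065 (mm9 build, as are all probe positions here). Its log2 signal was between 4.92 and 7.97 at P5, with a median of 6.16, and between 13.41 and 14.39 at P10, with a median of 13.98. The P5 arrays spread over 3 log2 units, and every P10 array was above every P5 array. The rise was 226-fold, or 7.66 (log2, standard error 0.49, adjusted p = 5.24e-07), beside 8.08 with PBS, and the other Mobp probes rose by 7.44 and 7.58.

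S1pr5, the sphingosine 1-phosphate receptor of oligodendrocytes at chr9:21047372-21047431, went from 5.77 to 6.98 (median 6.22) at P5 to 11.61 to 12.57 (median 11.99) at P10, a rise of 54.7-fold or 5.70 (standard error 0.22, adjusted p = 3.19e-08). Mog, a protein of the outer face of the myelin sheath at chr17:37148277-37148336, had a median of 8.14 at P5 (7.83 to 8.19) and 12.27 at P10 (11.70 to 12.53), 17.5-fold. Mal, a raft protein of myelin membranes, rose 16.6-fold and Etnk2, an ethanolamine kinase of phospholipid synthesis, 30.0-fold. The P10 arrays lay above all P5 arrays for each of these genes, which their choice required. The difference between the rises with IL1B and with PBS (interaction) was -0.49 to -0.25 for Mal, Mog, Etnk2 and S1pr5 and did not pass the test for any of the 4.

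For 3 of the 12 genes the rise after IL1B was smaller than after PBS by the interaction test. Cldn14, a claudin of tight junctions, rose by 4.09 with IL1B and 5.12 with PBS (log2; interaction -1.03, adjusted p = 0.0088). Il12rb1, a subunit of the receptors for interleukins 12 and 23, rose by 3.88 and 5.63 (interaction -1.75, adjusted p = 0.00143). Ermn, an actin-binding protein of the myelin sheath, rose by 4.49 and 5.43 on the probe at chr2:57897554-57897613 (interaction -0.93, adjusted p = 0.00384). Its brighter probe changed by -0.47 with IL1B and was not called, so that the 2 probes of Ermn disagree.

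Other rises began below background. Among 27 named probes above background on no P5 array and on all P10 arrays, a second Mobp probe rose at least 145-fold, Casr, the calcium-sensing receptor, at least 98.4-fold, and Gp2, a membrane glycoprotein of secretory granules, at least 44.0-fold. Il23a, the specific subunit of interleukin 23, rose at least 40.3-fold, Klk6, a serine protease of oligodendrocytes, at least 35.2-fold, and Hapln2, a link protein of the nodes of Ranvier, at least 33.7-fold. These folds are lower limits, taken against the lowest signal among probes that exceeded background on the P5 arrays. On the 6 P10 arrays Casr lay between 8.90 and 9.49 and Hapln2 between 6.22 and 7.74.

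**Figure D1:**
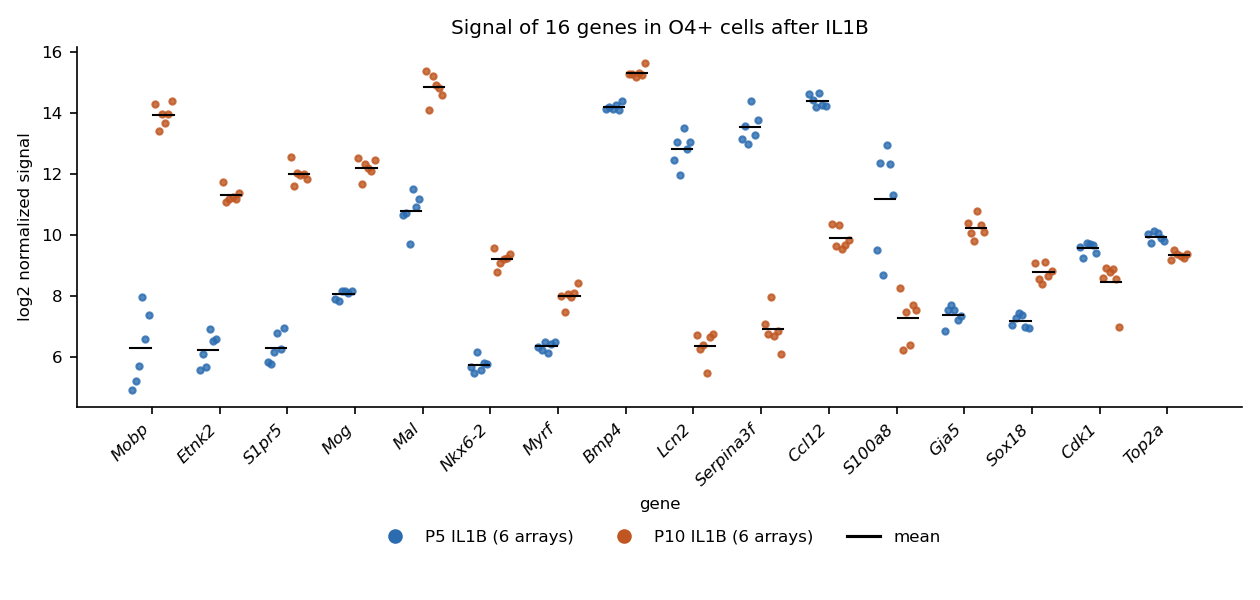
Log2 normalized signal (vertical axis) of 16 genes (horizontal axis) on each of the 6 P5 and 6 P10 arrays of O4+ cells after IL1B, with a bar at each group mean. Mobp rose from 4.92 to 7.97 at P5 to 13.41 to 14.39 at P10, Lcn2 fell from 11.99 to 13.51 down to 5.47 to 6.77, and Cdk1 and Top2a moved far less.

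Most genes of the myelin sheath rose. Of 20 structural myelin genes, 15 were called higher and 1 lower, with a median change of 2.08 (log2), beside 0.04 over all named genes. With PBS 15 were higher and 1 lower, with a median of 2.29. The mean log2 signal of the list was 10.80 to 11.32 on the P5 arrays (median 11.04) and 13.37 to 13.88 on the P10 arrays (median 13.58), without overlap. After PBS it was 11.13 to 11.69 at P5 and 13.99 to 14.11 at P10, so that the IL1B arrays ended lower at P10 and the P10 groups did not overlap.

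Mbp, the basic protein that compacts the sheath, rose by 3.21 (log2, standard error 0.14), from 12.46 to 12.97 at P5 to 15.42 to 16.24 at P10, beside 3.40 with PBS. Opalin, a transmembrane protein of mature oligodendrocytes, rose by 5.79 and Mag, an adhesion protein of the inner wrap, by 2.83. Pmp22, a protein of peripheral myelin, fell by 1.13 with overlapping groups. By the interaction test 0 of the 20 had a more negative change after IL1B, and 5 did with the scaling to the 75th percentile.

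Genes of the myelinating process and cytoskeleton followed the same course, 17 of 20 higher and 1 lower, with a median of 1.31 beside 1.49 after PBS (15 higher and 0 lower). Ppp1r14a, an inhibitor of myosin phosphatase, rose by 3.95, from 7.13 to 7.79 at P5 to 11.03 to 11.99 at P10. Tppp, which polymerizes microtubules in oligodendrocyte processes, rose by 3.87 with IL1B and 4.32 with PBS, a difference that passed the test (interaction -0.46, adjusted p = 0.015). For both genes the ages did not overlap. Among 18 genes of myelin lipid synthesis 13 rose and 0 fell (median 0.82; 0.98 with PBS). Aspa, which releases acetate for lipid synthesis, rose by 3.56, Elovl7, an elongase of very long fatty acids, by 1.87, Ugt8a, which makes galactosylceramide, by 1.69, and Fa2h, the hydroxylase of myelin galactolipids, by 1.61. Elovl1, another elongase, rose by 0.81 with IL1B and 1.32 with PBS (interaction -0.51, adjusted p = 0.0011). By the interaction test 3 of the 20 process genes and 2 of the 18 lipid genes rose less after IL1B, and with the 75th percentile scaling 7 and 9 did.

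Cholesterol synthesis rose less. Of 22 genes 6 were called higher after IL1B and 13 after PBS, with medians of 0.47 and 0.75 (log2), and 0 fell in either. Hmgcs1, which condenses the first precursors, rose by 0.87 (15.36 to 15.59 at P5, 16.14 to 16.48 at P10), without overlap. Mvd and Lss, a decarboxylase of the mevalonate pathway and the cyclase that forms lanosterol, rose by 0.78 and 0.71. For 5 genes the rise was smaller after IL1B than after PBS. Among them, chosen after its values were seen, Sc5d, a desaturase of the pathway, changed by 0.52 after IL1B and rose by 1.05 after PBS (interaction -0.53, adjusted p = 0.00303). With the 75th percentile scaling, 11 genes were called higher after IL1B, 16 after PBS and 11 differed, each less raised after IL1B. Without P10 IL1B replicate 1 the number that differed was 8, and with slide as a fixed block it was 3.

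**Figure D2:**
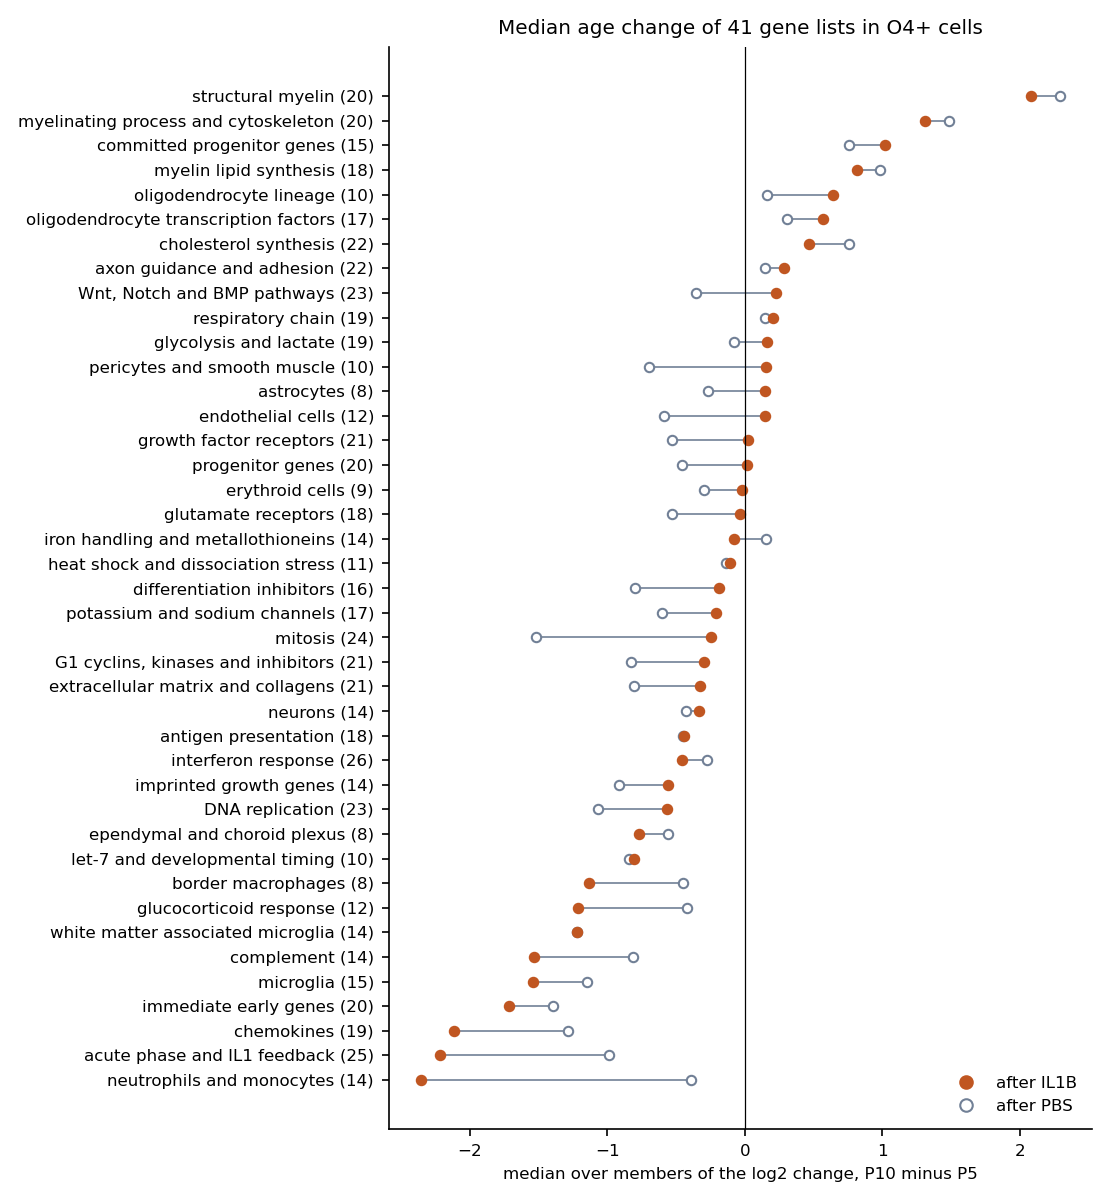
Median log2 change from P5 to P10 (horizontal axis) of the members of 41 gene lists (vertical axis) after IL1B (filled) and after PBS (open), 1 probe per gene and 6 arrays per group. Structural myelin stood at 2.08 and 2.29, mitosis at -0.24 and -1.52, and acute phase genes at -2.22 and -0.99.

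Of 17 transcription factors of the oligodendrocyte lineage 8 were called higher and 0 lower (6 higher without P5 IL1B replicate 1), with a median change of 0.57 beside 0.30 after PBS. Nkx6-2, a homeodomain factor of myelinating cells, went from 5.50 to 6.17 (median 5.73) at P5 to 8.82 to 9.58 (median 9.25) at P10, a rise of 3.48 (standard error 0.14). Myrf, the factor that turns on myelin genes directly, went from 6.15 to 6.51 to 7.48 to 8.45, a rise of 1.65, and St18, a zinc finger factor, rose by 1.70. No P10 array overlapped a P5 array for these 3 genes.

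For other regulators the change was more positive after IL1B than after PBS. Nkx2-2, which promotes differentiation, rose by 0.63 with IL1B and changed by -0.07 with PBS (interaction 0.70, adjusted p = 0.000192). Its P5 median was 11.64 with IL1B and 12.20 with PBS, while at P10 the medians were 12.23 and 12.14, so that the groups differed at P5 and drew level at P10. Sox17, a factor of oligodendrocytes and of endothelium, rose by 0.83 and changed by -0.61 (interaction 1.44, adjusted p = 0.0018). In all 5 of the 17 factors had a more positive change after IL1B and 0 a more negative one. With the 75th percentile scaling 3 had a more positive change and 2 a more negative one. Genes of the committed progenitor, the stage between progenitor and oligodendrocyte, rose in 11 of 15 cases (median 1.02; 10 of 15 and 0.75 with PBS). Among them were Rras2, a Ras family GTPase, by 1.93 and Enpp6, a choline phosphodiesterase of newly formed oligodendrocytes, by 1.47. Gpr17, a receptor that marks this stage, was at 17.79 to 18.24 at P5 and 18.18 to 18.57 at P10 and was not called.

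The progenitor programme did not fall as it did in control cells. Of 20 progenitor genes 0 were called lower after IL1B, where 9 were after PBS, and 1 was called higher in each (1 lower after IL1B without P5 IL1B replicate 4, and 5 lower after PBS with the 75th percentile scaling). The median change was 0.01 after IL1B and -0.46 after PBS. By the interaction test 11 of the 20 had a more positive change after IL1B and 0 a more negative one. That number was 9 to 15 when single arrays were left out, 7 with slide as a fixed block and 5 against 1 with the 75th percentile scaling. The mean log2 signal of the list was 13.34 to 13.61 at P5 and 13.24 to 13.71 at P10 after IL1B, which overlap, and 13.57 to 13.74 at P5 and 12.84 to 13.35 at P10 after PBS, which do not.

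Pdgfra, the receptor for the growth factor of progenitors, was at 15.50 to 15.82 at P5 and 15.00 to 15.71 at P10 after IL1B, a change of -0.35 that was not called. After PBS it went from 15.65 to 15.98 to 13.98 to 14.93, a fall of 1.35 (interaction 1.00, adjusted p = 0.000912). Cspg4, the NG2 proteoglycan of progenitors, changed by -0.58 and -1.15, and this difference missed the threshold (adjusted p = 0.071). Rlbp1, a retinoid-binding protein of progenitors, changed by -0.13 and -1.50 (interaction 1.37, adjusted p = 0.000269), and Ptprz1, a receptor phosphatase, by 0.14 and -0.60 (interaction 0.75, adjusted p = 0.000243). These progenitor genes were chosen after their values were seen, since under the naming rule the list gave Tnr, an extracellular matrix protein of the lineage, which rose by 0.60 with IL1B and 0.62 with PBS. The call of Tnr is at the fold threshold and was lost without any of 6 arrays in turn.

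Inhibitors of differentiation were mixed after IL1B. Of 16 genes 2 rose and 2 fell, where after PBS 0 rose and 9 fell, and 9 had a more positive interaction and 1 a more negative one. Id2, an HLH protein that blocks differentiation factors, fell by 1.61 (standard error 0.09), from 12.89 to 13.38 at P5 to 11.35 to 11.68 at P10, beside a fall of 0.92 after PBS (interaction -0.69, adjusted p = 0.000913). Its P5 median was 13.09 with IL1B and 11.67 with PBS. Hes1, a repressor below Notch, fell by 1.29 and by 1.41. Hes5, another Notch target, changed by -0.22 with IL1B and fell by 1.28 with PBS (interaction 1.07, adjusted p = 0.000172), and Sox9, a factor of neural precursors, changed by -0.37 with IL1B and fell by 1.44 with PBS (interaction 1.07, adjusted p = 0.00136). Hey2, a repressor of the Hey family, rose by 1.16 and Nkx6-1, a homeodomain factor, by 0.73, and neither was called after PBS (0.01 and -0.30). The call of Nkx6-1 was lost without P5 replicate 1, 3 or 6 and with the 75th percentile scaling, and with normexp background correction both calls were lost (changes of 0.54 for Hey2 and 0.27 for Nkx6-1). Hes5 and Sox9 were chosen after their values were seen.

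The clearest difference from the PBS course lay in cell division. Of 24 genes of mitosis 2 were called lower after IL1B (1 without P5 replicate 1), beside 8.32% of all named genes, where 23 were called lower after PBS, and the median changes were -0.24 and -1.52 (log2). The change was more positive after IL1B for 22 of the 24 by the interaction test, beside 12.4% of all named genes, and for 0 more negative. The count was 22 with the 75th percentile scaling, with slide as a random or a fixed block and without any 1 array. The mean log2 signal of the list was 9.86 to 10.16 at P5 and 8.27 to 8.79 at P10 after PBS, and 9.54 to 9.84 at P5 and 9.17 to 9.53 at P10 after IL1B. Thus the IL1B arrays lay lower than the PBS arrays at P5 and higher at P10, and the ages did not overlap in either treatment.

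Mki67, the proliferation antigen, was at 12.82 to 13.21 at P5 and 12.35 to 12.65 at P10 after IL1B, a change of -0.48 under the fold threshold although the ages did not overlap. After PBS it went from 13.09 to 13.43 to 11.27 to 11.76, a fall of 1.70 (interaction 1.22, adjusted p = 1.08e-06). Ccna2, the cyclin of S phase and G2, changed by -0.12 and -1.52 (interaction 1.40, adjusted p = 6.78e-07), and Plk1, a kinase of mitotic entry, by -0.13 and -1.40 (interaction 1.27, adjusted p = 3.84e-06). These 3 were chosen after their values were seen. Under the naming rule stood the called genes Cdk1 and Top2a. Cdk1, the kinase that starts mitosis, fell by 1.11 (medians 9.65 and 8.70), but only 2 of its 3 probes were called lower and its difference from PBS missed the threshold (adjusted p = 0.394). Top2a, which untangles chromosomes, fell by 0.61 beside 1.68 after PBS (interaction 1.08, adjusted p = 7.25e-06), and its call after IL1B was lost without P5 replicate 1, 3 or 4, with the deposited matrix values and with normexp (-0.49).

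The promoters of 4 mitosis genes with large interactions are shown because genes of this kind are known for CCAAT boxes in their promoters. These are not the 4 largest, since Ccna2 had a larger interaction than Bub1b and is not shown. In the 150 bases directly before the RefSeq start (GRCm38.p6, strand of the gene, 5′ to 3′), the capitals mark the pentamer CCAAT or its reverse complement ATTGG.
Cenpf: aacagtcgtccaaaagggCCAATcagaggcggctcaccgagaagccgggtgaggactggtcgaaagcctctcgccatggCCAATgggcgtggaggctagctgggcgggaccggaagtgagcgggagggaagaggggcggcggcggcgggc
Ttk: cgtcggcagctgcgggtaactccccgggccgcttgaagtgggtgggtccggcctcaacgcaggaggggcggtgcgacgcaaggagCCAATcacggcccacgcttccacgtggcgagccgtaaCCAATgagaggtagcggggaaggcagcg
Ccnb1: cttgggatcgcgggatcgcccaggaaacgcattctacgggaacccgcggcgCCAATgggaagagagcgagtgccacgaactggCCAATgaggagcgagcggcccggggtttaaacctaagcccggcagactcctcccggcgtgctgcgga
Bub1b: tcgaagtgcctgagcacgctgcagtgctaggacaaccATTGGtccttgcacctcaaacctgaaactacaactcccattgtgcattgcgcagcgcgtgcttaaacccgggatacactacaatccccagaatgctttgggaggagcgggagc
These windows lie at chr1:189688087-189688236 (minus strand), chr9:83834539-83834688 (plus), chr13:100786487-100786636 (minus) and chr2:118598061-118598210 (plus). CCAAT occurred on either strand in the 250 bases before the start of 18 of the 20 mitosis genes with an entry (90.0%), and in 10133 of 27025 genes in all (37.5%). The hexamer TTTGAA, part of the cell cycle homology region, occurred in 8 of the 20 (40.0%) and in 18.3% of all genes, and both motifs in 40.0% and 6.45%. A match describes letters and not a bound site. CCAAT was also present in 16 of 16 cholesterol genes with an entry and in 13 of 20 DNA replication genes, beside 8 of 16 structural myelin genes and 3 of 21 acute phase genes. Cenpf, a kinetochore protein, was at 4.42 to 5.17 at P5 and 4.71 to 5.26 at P10 after IL1B (change 0.23) and changed by -1.54 after PBS (interaction 1.77, standard error 0.35). Ttk, a kinase of the spindle checkpoint, changed by -0.44 and -2.02 (interaction 1.58), Ccnb1, the mitotic cyclin, by -0.17 and -1.59 (interaction 1.42), and Bub1b, a checkpoint protein, by -0.29 and -1.65 (interaction 1.36). None of the 4 was called after IL1B, and for all 4 the ages overlapped.

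DNA replication stood between these courses. Of 23 genes 9 were called lower after IL1B and 22 after PBS, with medians of -0.56 and -1.07, and 19 had a more positive change after IL1B (13 with slide as a fixed block, 18 to 21 without single arrays). Chaf1b, a histone chaperone of the replication fork, fell by 1.14 (11.42 to 11.67 at P5, 10.21 to 10.59 at P10) beside 1.75 after PBS. Cdt1, which licenses origins, fell by 1.03, Mcm3, a subunit of the replicative helicase, by 0.88, and Uhrf1, which maintains DNA methylation, by 0.79. For these 4 genes the ages did not overlap. Of 21 G1 cyclins, kinases and inhibitors 5 were lower after IL1B and 15 after PBS, and 10 had a more positive change after IL1B. Ccnd1, a cyclin of G1, changed by -0.30 with IL1B and fell by 1.03 with PBS (interaction 0.73, adjusted p = 0.000649; chosen after its values were seen). Cdkn1a, the p21 inhibitor of cyclin-dependent kinases, fell by 1.97 (10.05 to 10.64 at P5, 7.86 to 8.82 at P10), beside 1.35 after PBS.

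In CD11B+ cells of the P5 IL1B group 23 of the 24 mitosis genes had more signal than in the O4+ cells, by a median of 0.66 (log2), and their median change with age was 0.73. The microglial markers of the O4+ samples fell over the same interval, as given below. The part of other cells in the mitosis values was not tested.

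**Figure D3:**
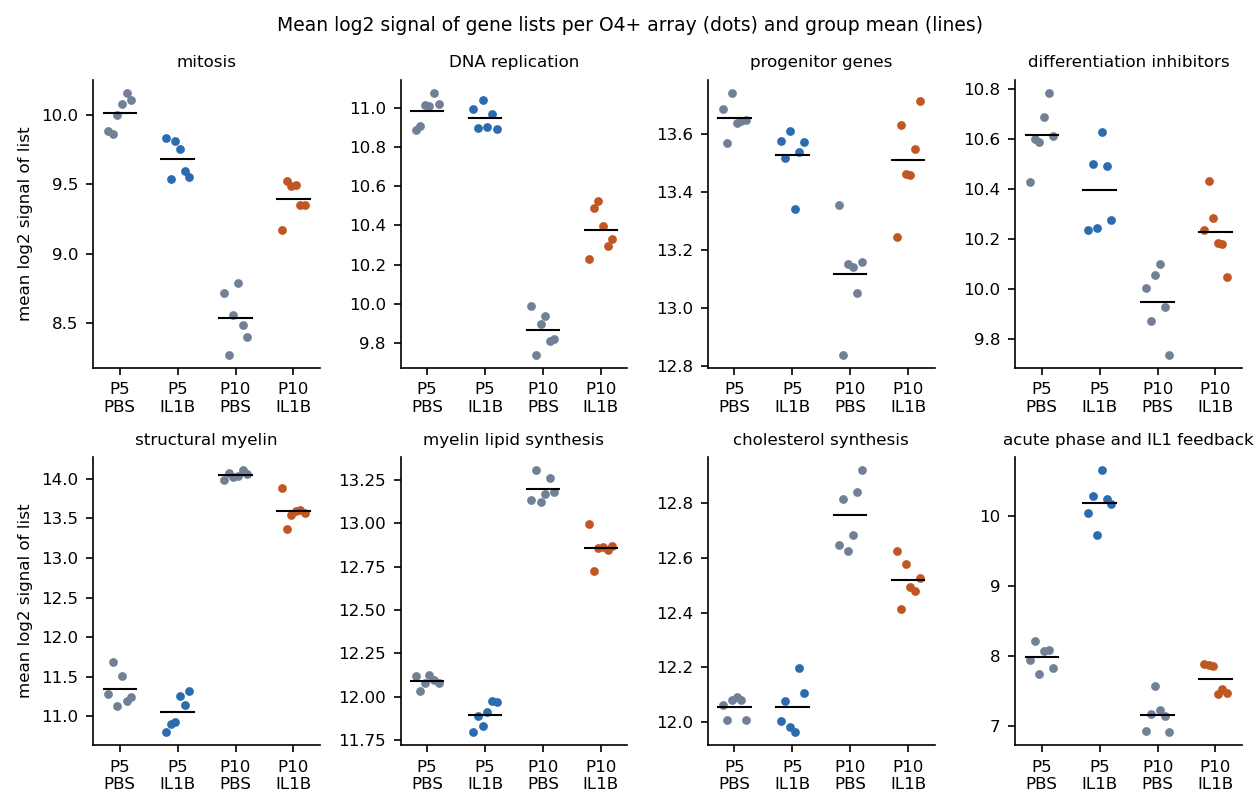
Mean log2 signal (vertical axis) of the members of 8 gene lists on each O4+ array, in 4 groups of 6 arrays (P5 and P10, PBS and IL1B). Mitosis genes went from 9.86 to 10.16 to 8.27 to 8.79 after PBS and from 9.54 to 9.84 to 9.17 to 9.53 after IL1B, and acute phase genes were highest in the P5 IL1B group at 9.74 to 10.66.

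Genes of developmental timing fell with both treatments. Of 10 genes regulated with or by let-7 microRNAs 6 fell after IL1B and 7 after PBS, with medians of -0.81 and -0.84. Lin28b, which blocks the maturation of let-7, fell by 2.02 (7.93 to 8.32 at P5, 5.85 to 6.51 at P10) beside 2.27 after PBS, without overlap and without a called difference. Igf2bp3, an RNA-binding protein of fetal tissue, fell by 1.47 and 2.04 (interaction 0.57, adjusted p = 0.00376). Of 14 imprinted growth genes 7 fell after IL1B and 8 after PBS. Grb10, an adaptor that restrains insulin receptor signalling, fell by 1.32 (7.71 to 7.99 at P5, 6.36 to 6.73 at P10) and 1.89, and Plagl1, a zinc finger regulator of the imprinted network, by 1.05 and 1.45.

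The 12 largest falls were likewise taken from called probes above background on all 12 arrays whose ages did not overlap. They were Serpina3f, Lcn2, Cd300lf, Cstdc5, Ccl12, Stfa1, Serpina3g, Stfa3, S100a8, Serpina3i, Stfa2 and Hcar2. Serpina3f, a serine protease inhibitor at chr12:105492556-105492615, had medians of 13.45 at P5 and 6.81 at P10, where its highest array was at 7.98, below all P5 arrays, and fell by 6.63 (log2, standard error 0.31, adjusted p = 6.43e-08). The ratio of medians decreased by 99.6-fold. After PBS it fell by 1.51, from a P5 median of 6.89. Lcn2, an acute phase protein that binds bacterial siderophores at chr2:32240199-32240258, was at 11.99 to 13.51 (median 12.94) at P5 and 5.47 to 6.77 (median 6.54) at P10, and decreased by 84.6-fold. After PBS its medians were 6.12 and 5.93, so that the P10 IL1B arrays were near the level of the control cells. In CD11B+ cells of the P5 IL1B group Lcn2 had more signal than in O4+ cells by 1.76 (log2), and Serpina3f had less (difference -1.56).

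Ccl12, a chemokine for monocytes at chr11:81916764-81916823, was at 14.22 to 14.68 at P5 and 9.55 to 10.36 at P10, without overlap, and decreased by 24.1-fold, beside a fall of 1.29 (log2) after PBS. Cd300lf, an inhibitory receptor of myeloid cells, decreased by 35.5-fold and Hcar2, a receptor for nicotinic acid and hydroxybutyrate, by 18.4-fold. Cstdc5, Stfa1, Stfa2 and Stfa3 are cysteine protease inhibitors of 1 cluster on chromosome 16, and S100a8 is a calcium-binding protein of neutrophils. Members of the stefin cluster and of the Serpina3 cluster are close copies, so that their probes may share signal and the single gene is uncertain. Stfa1 was at 7.94 to 12.51 on the P5 arrays and 5.49 to 7.74 at P10, and S100a8 at 8.70 to 12.97 and 6.25 to 8.26, which did not overlap but spread over 4 log2 units at P5. Among 84 named probes above background on all P5 arrays and on no P10 array, Acod1, which makes itaconate, decreased by 27.2-fold or more, C5ar1, the receptor for complement fragment C5a, decreased by 18.9-fold or more and Steap4, a metalloreductase induced by inflammation, decreased by 14.8-fold or more. Cd69, an early antigen of activated leukocytes, decreased by 15.4-fold or more.

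As a list, 22 of 25 acute phase and IL1 feedback genes were lower at P10 after IL1B and 1 was higher, with a median of -2.22, where after PBS 15 were lower and 1 higher with a median of -0.99. The interaction was negative for 15 and positive for 0. The mean log2 signal of the list was 9.74 to 10.66 at P5 and 7.45 to 7.89 at P10 after IL1B, beside 7.74 to 8.22 and 6.92 to 7.58 after PBS. Every P5 IL1B array lay above all arrays of the other groups, and the P10 IL1B arrays overlapped those of the P10 PBS group. Saa3, a serum amyloid protein, fell by 4.52 (6.01 to 8.48 at P5, 1.69 to 5.51 at P10) and Socs3, the inhibitor of cytokine signalling, by 2.83 (13.01 to 13.69 at P5, 10.28 to 10.84 at P10), beside changes of -0.15 and -1.15 after PBS. For Saa3 and Socs3 the ages did not overlap. Il1r1, the receptor for IL1B, fell by 1.75 and by 0.99, a difference that missed the threshold (adjusted p = 0.173). Nfkbia, the inhibitor of NF-kappaB, fell by 1.77 and by 1.82. Pla2g4a, a phospholipase that frees arachidonic acid, was the 1 member that rose, by 1.27 and 1.65. In CD11B+ cells of the P5 IL1B group 20 of the 25 genes had more signal than in O4+ cells.

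Chemokines fell in 15 of 19 cases and rose in 1 (median -2.12; 13 falls and -1.29 with PBS). Cxcl10, a chemokine for T cells, fell by 3.59 (12.74 to 14.36 at P5, 9.20 to 10.32 at P10), and Cxcl1 and Cxcl2, chemokines for neutrophils, by 3.29 and 3.30, each without overlap. These also fell after PBS, by 3.03, 4.29 and 4.24, and for Cxcl1 the fall was smaller after IL1B (interaction 1.00, adjusted p = 0.0499). This difference of Cxcl1 is at the threshold. Of the 19 chemokines 2 had a more positive change after IL1B and 6 a more negative one. With slide as a random block these counts were 1 and 6, and with slide as a fixed block 1 and 4. Cxcl12, which guides progenitors and vessels, was the 1 that rose, by 1.75 (9.13 to 10.04 at P5, 10.84 to 11.71 at P10), while it changed by 0.14 after PBS (interaction 1.60, adjusted p = 0.000872). Its P5 median was 9.31 with IL1B and 11.31 with PBS.

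Of 26 interferon genes 9 fell and 1 rose after IL1B, beside 4 and 1 after PBS. Of 18 antigen presentation genes 6 fell and 0 rose after IL1B, beside 9 and 1 after PBS. For both lists the P10 arrays with IL1B stayed above all P10 arrays with PBS, with mean log2 signals of 8.04 to 8.96 and 7.19 to 7.55 for interferon genes and of 9.70 to 10.48 and 8.66 to 9.05 for antigen presentation genes. The same held for chemokines (9.13 to 9.61 and 8.22 to 8.76) and complement genes (8.03 to 8.61 and 7.37 to 7.87). Gbp2, an interferon-induced GTPase, fell by 2.60 (10.27 to 12.60 at P5, 7.85 to 9.33 at P10) and was at P10 still above the PBS median of 6.61. Gbp3 and Igtp, GTPases of the same response, fell by 1.77 and 1.58, with overlapping ages for Igtp. Mx2, an antiviral GTPase, rose by 1.37 and after PBS by 1.56. Ctss, a protease of antigen processing, fell by 2.30 (15.40 to 15.70 at P5, 12.85 to 13.72 at P10), and B2m, the light chain of class I molecules, by 0.76. The call of B2m was lost with the 75th percentile scaling, with which 3 of the 18 genes fell, and without P10 replicate 4, 5 or 6. Complement genes fell in 13 of 14 cases (median -1.54; 8 of 14 and -0.82 with PBS), among them C3ar1, the receptor for C3a, by 3.08, and C1qb and C1qc, chains of the first component, by 2.58 and 2.53.

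Markers of other cell types moved over the same interval. Of 15 microglial markers 12 were called lower and 1 higher after IL1B, beside 11 and 1 after PBS. The mean log2 signal of the list went from 14.21 to 14.57 at P5 to 12.72 to 13.36 at P10 after IL1B, and from 13.12 to 13.68 to 12.43 to 13.07 after PBS. Thus the groups were apart at P5 with IL1B above PBS, and they overlapped at P10. In bulk samples fewer cells of a type and less RNA per cell cannot be told apart. Trem2, a microglial lipid receptor, fell by 2.29 (14.62 to 15.16 at P5, 12.31 to 13.06 at P10) and Cx3cr1, the fractalkine receptor, by 1.64. The 1 marker that rose was Itgam, which encodes CD11B itself, by 0.77 on the probe with the most signal, while another of its 3 probes fell by 1.99 and the third was not called, so that the probes of Itgam disagree. The C1q genes are members of both the complement and the microglia list.

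Neutrophil and monocyte markers were the least even. Of 14 genes 10 were called lower after IL1B and 4 after PBS. Their mean log2 signal was 5.96 to 8.86 at P5 and 4.66 to 5.59 at P10 after IL1B, beside 4.07 to 4.68 and 3.50 to 4.37 after PBS. The P5 IL1B arrays spread over nearly 3 log2 units, with replicate 3 at 5.96 and replicate 1 at 6.58 the lowest, and without replicate 2 the number called lower was 7. Retnlg, a resistin-like protein of neutrophils, was at 5.22 to 9.81 at P5 and 2.72 to 4.85 at P10, Cxcr2, their chemokine receptor, at 6.57 to 8.69 and 2.61 to 4.69. S100a9, the partner of S100a8, fell by 3.67 with overlapping ages. All 14 markers had more signal in CD11B+ than in O4+ cells of the P5 IL1B group, by a median of 5.86, and in the CD11B+ cells of IL1B pups they changed with age by a median of -2.49. The part of neutrophils in the falls of the stefin genes and S100a8 was not tested, and none of the markers was below background on all 12 arrays.

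Border macrophage markers fell in 4 of 8 cases, among them Mrc1, the mannose receptor, by 1.72. None of 8 astrocyte, 9 erythroid and 8 ependymal markers was called after IL1B (1, 1 and 2 when single arrays were left out), 2 of the erythroid markers being below background on all 12 arrays. After PBS 1, 3 and 3 of them were called lower (1, 0 and 0 with slide as a random block) and 0 higher. These counts use 1 probe per gene. With all probes of the astrocyte markers, 3 probes were called higher and 0 lower after IL1B, and 2 higher and 2 lower after PBS. Gfap, the filament of astrocytes, was at 6.86 to 9.64 at P5 and 7.80 to 8.58 at P10. Of 14 neuronal markers 3 fell (5 without P5 IL1B replicate 1) and 1 rose, Tubb3, a neuronal tubulin, by 1.04 and Snap25, a protein of vesicle fusion, rising by 0.95 beside 1.23 after PBS.

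Endothelial markers showed a difference between treatments, and the medians of pericyte markers, given below, moved in a similar way. Of 12 genes 3 rose after IL1B and 0 fell, where 0 rose and 5 fell after PBS, and 5 had a more positive change after IL1B. The mean log2 signal of the list was 9.35 to 9.95 at P5 and 9.62 to 10.13 at P10 after IL1B, beside 9.89 to 10.94 and 9.47 to 10.11 after PBS. The 3 that rose were Sox18, a factor of endothelial identity, by 1.59, Slco1a4, a transporter of the blood-brain barrier, by 1.13, and Tek, the angiopoietin receptor, by 0.73, whose call was lost without P10 replicate 1, 4 or 6 and with normexp (0.54). Cldn5, the main claudin of brain vessels, changed by 0.36 after IL1B and fell by 1.04 after PBS (interaction 1.40, adjusted p = 0.00129; chosen after its values were seen). Pecam1, another defining marker, changed by -0.09 and -0.53 and passed neither test. The count of endothelial genes lower after PBS was 3 without P5 PBS replicate 2 and 8 without replicate 6, and 3 with slide as a random block. Pericyte markers rose in 1 of 10 cases, Acta2, the smooth muscle actin, by 1.07 with overlapping ages, or 3 without P5 IL1B replicate 4. After PBS 0 of the 10 rose and 6 fell (2 with slide as a random block), with medians of 0.15 after IL1B and -0.70 after PBS. Their median interaction was 0.86, beside 0.84 for the endothelial markers. It passed the test for 0 of the 10, or for 5 without P5 IL1B replicate 4.

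**Figure D4:**
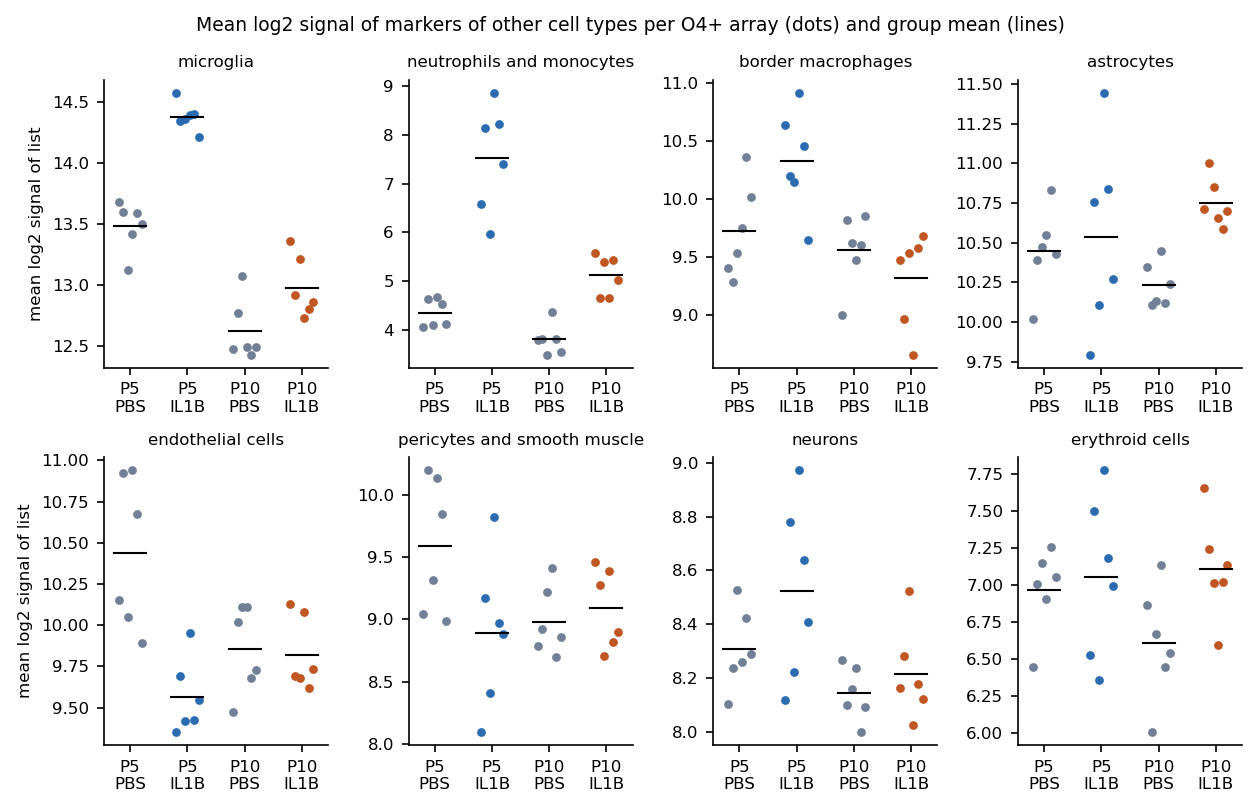
Mean log2 signal (vertical axis) of 8 lists of markers of other cell types on each O4+ array, in 4 groups of 6 arrays (P5 and P10, PBS and IL1B). Microglial markers were at 14.21 to 14.57 in the P5 IL1B group and 12.72 to 13.36 in the P10 IL1B group, and neutrophil and monocyte markers at 5.96 to 8.86 and 4.66 to 5.59.

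Genes of stress hormones and of early responses were lower at P10. Of 12 glucocorticoid response genes 7 fell after IL1B and 0 rose, beside 5 and 1 after PBS, and the interaction was negative for 8. Hif3a, a hypoxia-inducible factor subunit, fell by 4.12 (10.05 to 10.83 at P5, 6.13 to 6.64 at P10) and by 1.35 after PBS (interaction -2.77, adjusted p = 1.15e-06). Per1, a clock repressor, fell by 2.48 (13.67 to 14.11, then 11.22 to 11.74) and changed by -0.51 after PBS. Their P10 medians were 6.44 and 11.55 with IL1B and 6.39 and 11.42 with PBS. Of 20 immediate early genes 16 fell and 1 rose with either treatment, with medians of -1.72 and -1.39. Fos, a subunit of AP-1, fell by 2.37 and 2.17 and Egr1, a zinc finger factor, by 2.33 and 2.72, neither with a called difference, while Fosl2, another AP-1 subunit, fell by 2.93 and 1.23 (interaction -1.70, adjusted p = 2.81e-05). Arc, a capsid-like protein of synapses, was the 1 that rose, by 3.08 (7.16 to 8.29 at P5, 10.38 to 11.25 at P10) beside 4.64 after PBS. All 20 of these genes had more signal in CD11B+ than in O4+ cells at P5.

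Iron and metal genes changed in both directions, 2 of 14 higher and 5 lower. Trf, the iron carrier transferrin that oligodendrocytes make, was at 13.89 to 14.16 at P5 and 14.65 to 15.56 at P10, a linear ratio of medians of 2.39. On the log2 scale it rose by 1.15 to 1.33 when single arrays were left out. After PBS Trf rose by 2.88 (log2) from P5 values of 12.45 to 13.21 (interaction -1.68, adjusted p = 1.07e-05). Mt2, a metallothionein, fell by 1.49 (13.95 to 15.45, then 12.99 to 13.50) and changed by 0.31 after PBS, and Hfe, a regulator of iron uptake, fell by 1.72 and 0.73. Tfrc, the transferrin receptor, rose by 0.63 and changed by -0.39 (interaction 1.03, adjusted p = 3.47e-05). Heat shock genes did not move as a group, 3 of 11 higher and 2 lower, with Hmox1, which degrades heme, falling by 1.73 and Gadd45a, a sensor of DNA damage, rising by 1.00. None of 19 respiratory chain genes was called, at a median of 0.20. Of 19 glycolysis genes 1 rose, Pgk1, a kinase of the pathway, by 0.68, and 1 fell, Hk2, a hexokinase, by 0.95.

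Receptors and signalling genes of the lineage were mixed. Of 21 growth factor receptors 6 rose and 1 fell after IL1B, beside 5 and 8 after PBS, and 9 had a more positive change after IL1B, or 5 with slide as a fixed block. Gpr37, a receptor of maturing oligodendrocytes, rose by 3.01 (8.04 to 8.69 at P5, 11.07 to 11.79 at P10) and by 3.82 after PBS (interaction -0.80, adjusted p = 0.00199), and Lpar1, a lysophosphatidic acid receptor, by 2.44 and 3.21 (interaction -0.77, adjusted p = 0.0368). Erbb3, the neuregulin receptor, rose by 1.38 with overlapping ages, and with normexp its change was 0.31 and not called. Of 23 genes of the Wnt, Notch and BMP pathways 5 rose and 1 fell after IL1B and 4 rose and 9 fell after PBS, and 12 had a more positive change after IL1B. Bmp4, a ligand made by committed progenitors, rose by 1.11 (14.11 to 14.41, then 15.19 to 15.64) and 0.69. Lef1, a factor of canonical Wnt signalling, rose by 0.93 after IL1B and fell by 0.91 after PBS, from P5 medians of 8.88 and 10.66 (interaction 1.83, adjusted p = 2.27e-05). Smad6, an inhibitor of BMP signalling, rose by 1.38 (4.86 to 5.66, then 6.53 to 7.11) and changed by -0.28.

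Among 22 axon guidance and adhesion genes 8 rose and 2 fell. Unc5b, a netrin receptor, rose by 2.68 (8.90 to 9.37 at P5, 11.52 to 12.28 at P10) and Efnb3, an ephrin, by 1.61. Ion channels split evenly, 3 of 17 higher and 3 lower, among them Kcna1, a potassium channel of axons and glia, rising by 0.89 and 1.57. Scn8a, a sodium channel, fell by 1.86 on the probe with the most signal, while another of its 3 probes rose by 0.93. Of 18 glutamate receptors 2 fell after IL1B and 6 after PBS, and 8 had a more positive change after IL1B, or 2 with slide as a fixed block. Grin2b, an NMDA receptor subunit, fell by 0.92 and 0.64, and with normexp its change after IL1B was -0.48 and not called. Extracellular matrix genes rose in 5 of 21 cases and fell in 2, beside 4 and 11 after PBS (7 lower with the 75th percentile scaling and 5 with slide as a random block). Adamts4, a protease of lecticans made by oligodendrocytes, rose by 2.30 (11.23 to 12.23 at P5, 13.93 to 14.32 at P10) and Lamb1, a laminin chain, fell by 1.19 with overlapping ages.

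Among called probes above background on all 24 O4+ arrays, the largest interactions were read in both directions. Gja5, connexin 40 of arterial endothelium at chr3:96857349-96857408, was at 6.86 to 7.73 at P5 and 9.81 to 10.80 at P10 after IL1B, a rise of 2.88, and had medians of 10.80 and 10.53 after PBS (interaction 3.14, standard error 0.36, adjusted p = 5.77e-06). Mob3b, a kinase activator, rose by 2.39 (interaction 2.75), Syt15, a synaptotagmin, by 2.36 (2.63), Degs2, a sphingolipid hydroxylase, by 2.26 (2.12), and Sox18 by 1.59 (2.12). For each of these 5 genes the P5 median was lower after IL1B than after PBS, and the ages did not overlap after IL1B except for Mob3b. On the negative side, within the same probes, stood Lcn2 (interaction -6.26), Serpina3f (-5.12), Cd300lf (-3.42), Ccl12 (-3.22), Stfa2 (-3.10) and Pla1a (-2.82). Pla1a, a phospholipase, was at 6.38 to 7.98 at P5 and 4.59 to 5.72 at P10, a fall of 2.06, where after PBS it rose by 0.76. With slide as a fixed block the interaction of Stfa2 lost its call (adjusted p = 0.0949).

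**Figure D5:**
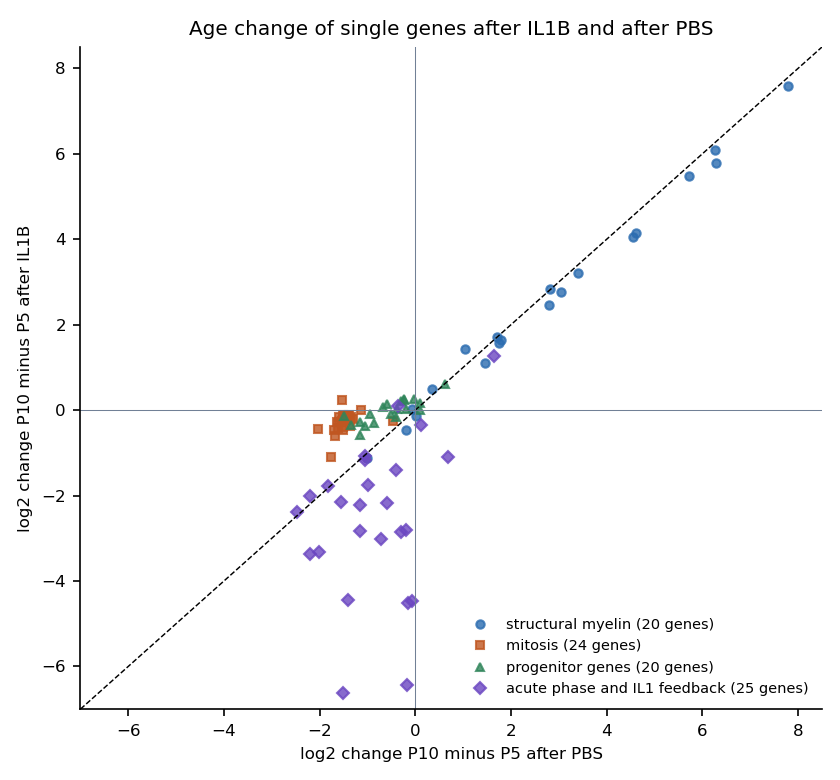
Log2 change from P5 to P10 after IL1B (vertical axis) against that after PBS (horizontal axis), 1 point per gene of 4 lists, with a dashed line where both are equal. Structural myelin genes lie along the line up to 7.58 and 7.79 for Mobp, mitosis genes lie above it at changes near -1.52 after PBS and -0.24 after IL1B, and acute phase genes lie on or below it down to -6.63 for Serpina3f.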

How the data were processed

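RNA of each sample was amplified, labelled with Cy3 and hybridised to 1 array of a 1-colour Agilent mouse design. Per the file headers, the deposited scanner files hold the processed signal intensity of each spot from Agilent Feature Extraction 10.7.3.1, after background subtraction and without scaling between arrays. The deposited value matrix holds the authors' ratio of each signal to the array's median, to within 1.86e-05 (log2), and served as an alternative. Here 62 non-uniform spots on the 12 arrays were set to missing, log2 signals of the 24 O4+ arrays were brought to 1 distribution by quantile normalization and spots averaged per probe (59305 spots, 55681 probes), and 0 spots were saturated. Differences between CD11B+ and O4+ cells came from a normalization over all 48 arrays. The age changes in CD11B+ cells came from a normalization over the 24 CD11B+ arrays alone. Of the probes 30333 had a gene symbol, 27235 of them named through a RefSeq accession, and the others keep the name of the array design or none. Positions are those of the files (mm9), for which no exon annotation was used here. Promoters are RefSeq sequences of GRCm38.p6.

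P10 was compared with P5 by limma 3.58.1 in R 4.3.3 with Benjamini-Hochberg adjustment over all probes, 6 arrays per group. Calls needed an adjusted p under 0.05 and a ratio of group medians over 1.5, and the interaction needed the adjusted p alone. Gene values come from the probe with the highest mean signal. The labels share replicate numbers between ages, but same-numbered samples did not deviate together (r = -0.0942 to 0.05), and no block was used. Lower limits of folds set the group above background against, per array, the higher of the lowest signal among probes above background and the probe's own. The script was tested on simulated data. Members and the 41 lists were chosen with earlier results of these data known. Of the 682 list entries 681 were measured.

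Genes were named by rule: the 4 called members of each list with the largest change, the 12 largest rises and falls above background and without overlap, the 6 largest interactions each way among called probes, and the 6 largest lower limits each way. Some genes that the rule takes in are not reported here. Also named, after their values were seen, were Mbp, Mag, Pmp22, Elovl1, Nkx2-2, Gpr17, Egr1, Il1r1, Nfkbia, Socs3, Pla2g4a, Cxcl12, Mx2, Cx3cr1, Itgam, Gfap, Pecam1, Tfrc and the genes said so in the text. Alternatives covered scaling, background correction, the matrix values, dim probes, the test, the fold threshold, slide, scan day, replicate number and each array left out. Slide as a fixed block, and the list counts without each array or with slide blocks, were added after the data were seen.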

Additional observations from a re-analysis of the deposited data

Results flagged for a closer look

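Of 166 groups of 6 arrays tested for a sample far from the others, 9 held one, and chance gives about 1 in 20. Among single genes, Casr had a high value of 9.49 on P10 replicate 1 (the next was 9.11), Hapln2 a low value of 6.22 on P10 replicate 2 (the next was 7.31), and the dim Serpina3i probe a high value of 3.28 on P10 replicate 4. Cd69 was low at 5.17 on P5 replicate 3 and Clec4e high at 2.09 on P10 replicate 3. Among list means, the progenitor genes were low at 13.34 and the antigen presentation genes high at 11.11 on P5 replicate 4, the interferon genes were high at 8.96 on P10 replicate 3, and the axon guidance genes were low at 12.03 on P10 replicate 6. All are log2 signals of IL1B groups.

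Of the 42 probes named for the size of their changes or interactions, 28 differed between the age changes after IL1B and after PBS at an adjusted p under 0.05 (limma). The choice of these probes largely fixes that count, and over all probes 7.83% were more positive and 5.32% more negative. On the log2 scale, the change after IL1B minus that after PBS was -6.26 for Lcn2, -5.12 for Serpina3f, -4.58 for Acod1, -4.39 for Steap4, -4.26 for Stfa3, -3.85 for Clec4e and -3.28 for Cd69. It was -3.87 and -4.84 for the probes of Serpina3i and -3.10 and -3.42 for those of Cd300lf. Further falls that were larger after IL1B were those of S100a8 (-3.39), Ccl12 (-3.22), Stfa2 (-3.10), Serpina3g (-3.03), Cstdc5 (-2.88) and C5ar1 (-2.87), and Pla1a fell after IL1B and rose after PBS (-2.82). Rises that were smaller after IL1B were those of Il12rb1 (-1.75), Il23a (-1.58), Cldn14 (-1.03), Ermn (-0.93) and Gp2 (-0.84). The difference was positive for Gja5 (3.14), Mob3b (2.75), Syt15 (2.63), Degs2 (2.12) and Sox18 (2.12). Acod1, C5ar1, Steap4, Clec4e, Cd69 and the dim Serpina3i probe were above background on no P10 array with IL1B. Il23a and Gp2 were above background on no P5 array with IL1B. The differences of these probes rest partly on signals below background, so that their size is uncertain.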

How the results depend on the processing

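Age is shared with slide, scan day and the time since the last injection in every age change. The P5 samples were collected on the day of that injection and the P10 samples 5 days after it, so that age and this time cannot be told apart. Precision was set by 6 arrays per group, and 226 of the called probes were above background on no array. With scaling to the 75th percentile the majority turned in each comparison: 2888 interactions were positive and 4923 negative (37% positive, against 59.6%), 3136 probes were higher and 3574 lower after IL1B, and 5721 and 4598 after PBS. None of the 163 probes named by rule changed direction after IL1B under the alternatives run for single probes. All were called and chosen for large changes or interactions on these same arrays, which largely fixes that result. Genes named after their values were seen, and the changes of single genes after PBS, were not checked in this way. With normexp background correction, 1635 probes were higher and 1907 lower after IL1B, and 2248 and 2537 after PBS. Without the fold threshold the counts were 9400 and 6400 after IL1B and 9686 and 9256 after PBS, by that construction. With slide as a fixed block, chosen after seeing the data, 2016 interactions were positive and 1885 negative. The cause of the other shifts was not tested. With slide as a random block 3085 probes were higher and 2955 lower after IL1B, and with scan day 2808 and 2672. The methods' t-test, with their fold and Benjamini-Hochberg adjustment, gave 3223 and 3104. Without single arrays the counts were 3170 to 3456 and 3117 to 3295 after IL1B, 4076 to 4511 and 4592 to 5012 after PBS, and 3789 to 5121 and 2517 to 3506 for positive and negative interactions. The replicate numbers did not pair the samples (1 of 6 matched its own number best), and the replicate block gave 3171 and 3057 after IL1B, 4226 and 4775 after PBS, and 4207 and 2987 interactions. Of 163 named probes, calls were lost by 10 with normexp, 4 with the matrix values, 2 with the 75th percentile scaling, 2 with the replicate block and 0 with slide as a random block. The settings for the age changes alone (normalization over only the arrays compared, no fold threshold, a threshold on means, and all groups in 1 fit) have no counterpart for the interaction.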
